A study of Mus musculus with 24 samples.

Results

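The genes described here are 50 genes of the mitotic spindle, the kinetochore, chromosome condensation and cytokinesis, taken by name from a written list that was drawn up with earlier results of these data known. All 50 were found among the 21671 genes measured in every sample. They comprise 5 genes of the spindle assembly checkpoint (Bub1, Bub1b, Bub3, Mad2l1, Ttk), 9 of the centromere and kinetochore (Cenpa, Cenpe, Cenpf, Ndc80, Nuf2, Spc24, Spc25, Ska1, Kntc1), 4 of the chromosomal passenger complex (Aurkb, Birc5, Incenp, Cdca8), 13 of spindle motors and microtubule-associated proteins (Aurka, Tpx2, Kif11, Kif15, Kif18a, Kif22, Kif2c, Kif4, Nusap1, Hmmr, Aspm, Ckap2, Gtse1), 7 of cytokinesis (Kif20a, Kif23, Prc1, Racgap1, Ect2, Anln, Cep55), 4 of anaphase onset (Cdc20, Ube2c, Pttg1, Espl1), 7 of condensin and DNA topology (Smc2, Smc4, Ncapd2, Ncapg, Ncapg2, Ncaph, Top2a) and the kinase Melk.

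RNA was sequenced from the spleens of C57/Bl6 mice aged 8 weeks, which were unstressed (mock) or collected 4 h after whole-body ionizing radiation (IR) at 7 Gy. The mice were wild-type (Trp53+/+) or lacked the p53 tumor suppressor in all tissues (Trp53-/-). B cells were the cells retained on magnetic beads against B220, a surface protein of B cells, and non-B cells were the remaining splenocytes, a mixture of T cells, myeloid cells, natural killer cells and others. Each combination of cell type and treatment held 4 Trp53+/+ and 2 Trp53-/- samples, which gave 8 groups and 24 samples. The non-B cells were what passed through the columns that retained the B cells, so that B and non-B samples of a condition may come from the same mice, but the sources used here do not say which sample pairs with which. The values are RPKM, reads per kilobase of transcript scaled to the reads mapped to exons, so that levels of different genes can be compared per unit of length.

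In a dividing cell, kinetochores built on centromeric Cenpa nucleosomes attach each chromosome to spindle microtubules, and the checkpoint kinases hold back anaphase until all chromosomes are attached. The anaphase-promoting complex then marks securin for destruction, separase frees the sister chromatids, and the central spindle and the actomyosin ring divide the cell. Transcripts of most of these genes accumulate in G2 and mitosis, so that in spleen, where most lymphocytes rest, they come largely from the cells in cycle. Upon DNA damage, p53 is known to induce the cyclin-dependent kinase inhibitor Cdkn1a (p21), which favours assembly of the repressive DREAM complex on promoters with a cell cycle genes homology region (CHR, with the core TTTGAA or TTCGAA), often found near CCAAT boxes bound by NF-Y.

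The promoters of these genes were searched for those elements. RefSeq start sites of build GRCm38.p6 were given for 43 of the 50 genes, and none for Spc24, Aurkb, Incenp, Smc4, Kif20a, Tpx2 and Ska1. Within 250 bases before to 50 bases after the start, on either strand, TTTGAA was present in 32 of the 43 genes (74.4%) and in 20.2% of the 27025 genes with such a window. TTCGAA, which reads the same on both strands, was present in 3 (7.0%, against 1.8%), and CCAAT in 29 (67.4%, against 41.1%). TTTGAA or TTCGAA stood together with CCAAT in 27 of the 43 genes (62.8%) and in 8.6% of all genes. A match is a description of the letters in the window and was not tested for binding of any factor. The sequences of 4 of these promoters are shown because the first 3 belong to the genes with the largest rise after IR described below and the fourth to a gene that fell. Capitals mark the CHR core and the CCAAT box, each on either strand.
Gtse1, plus strand, chr15:85859457-85859756: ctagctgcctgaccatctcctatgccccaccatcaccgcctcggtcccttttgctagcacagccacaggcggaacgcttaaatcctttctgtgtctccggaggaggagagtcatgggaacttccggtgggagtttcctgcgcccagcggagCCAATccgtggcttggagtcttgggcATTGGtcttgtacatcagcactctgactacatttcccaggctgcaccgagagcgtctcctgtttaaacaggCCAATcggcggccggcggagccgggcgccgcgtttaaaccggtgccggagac
Ckap2, minus strand, chr8:22185770-22186069: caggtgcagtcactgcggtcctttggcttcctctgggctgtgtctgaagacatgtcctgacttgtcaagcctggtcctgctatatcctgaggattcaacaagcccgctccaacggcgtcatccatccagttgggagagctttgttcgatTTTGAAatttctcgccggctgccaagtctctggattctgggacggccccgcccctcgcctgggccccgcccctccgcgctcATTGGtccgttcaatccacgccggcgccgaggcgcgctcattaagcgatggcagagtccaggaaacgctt
Spc25, minus strand, chr2:69206164-69206463: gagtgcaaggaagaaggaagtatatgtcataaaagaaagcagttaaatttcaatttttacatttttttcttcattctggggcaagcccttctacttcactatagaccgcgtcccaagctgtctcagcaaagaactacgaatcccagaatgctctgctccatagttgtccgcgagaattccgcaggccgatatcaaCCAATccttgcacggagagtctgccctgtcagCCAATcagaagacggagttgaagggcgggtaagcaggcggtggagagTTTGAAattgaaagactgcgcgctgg
Ncapg, plus strand, chr5:45669675-45669974: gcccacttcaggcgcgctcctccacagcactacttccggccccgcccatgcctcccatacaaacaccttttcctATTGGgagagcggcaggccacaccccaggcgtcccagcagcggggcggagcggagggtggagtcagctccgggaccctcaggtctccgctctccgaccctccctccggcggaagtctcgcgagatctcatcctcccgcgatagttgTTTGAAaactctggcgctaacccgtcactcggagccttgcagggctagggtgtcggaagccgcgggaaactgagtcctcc

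Gtse1 held 3 CCAAT boxes in the first of its 2 listed windows, and neither TTTGAA nor TTCGAA in either window. Ckap2 held TTTGAA at -101 and a CCAAT box on the opposite strand at -20, Spc25 held TTTGAA at 25 and CCAAT at -55 and -23, and Ncapg held TTTGAA at -30 and an opposite-strand CCAAT at -176, with positions counted from the start site to the first base of the match. Melk held none of the 3 elements.

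The p53 target Cdkn1a separated the genotypes after IR in every sample. It ranged over 82.3 to 97.8 RPKM in irradiated Trp53+/+ B cells and over 0.562 to 0.726 RPKM in irradiated Trp53-/- B cells. In non-B cells the corresponding ranges were 69.6 to 88.3 and 2.42 to 2.63 RPKM. Transcripts of the Trp53 locus itself were still counted in Trp53-/- cells, at 21.6 to 21.7 RPKM in mock B cells against 44.8 to 47.9 RPKM in mock Trp53+/+ B cells, and the extent of the deletion is not given in the sources used here. B cell markers (15 genes) summed to 1621.1 to 1861.5 RPKM in mock Trp53+/+ B cells and 539.8 to 860.7 RPKM in mock Trp53+/+ non-B cells, so that the non-B fraction retained B cell transcripts. Estimated depth ranged from 4.72 to 11.05 M (mega) reads, lowest in 1 of the irradiated Trp53+/+ B samples. In Trp53+/+ B cells it was 7.62 to 10.26 M in mock and 4.72 to 7.68 M in irradiated samples. The Trp53-/- B samples had 8.79 to 9.15 M in mock and 8.81 to 9.28 M after IR. Depth thus went with IR in Trp53+/+ B cells, and its part in the results was not tested. Of 1443 olfactory and vomeronasal receptor genes, 1336 had a mean below 0.05 RPKM over the mock samples and are called silent here. The mock samples chose these genes, so that a low share in mock was set by the choice. Between 0.82% and 3.37% of them were above 0 in mock samples. In irradiated Trp53-/- samples the share was 2.4% to 7.93% (B) and 2.92% to 3.29% (non-B). It reached 44.01% in irradiated Trp53+/+ B cells and 47.98% in irradiated Trp53+/+ non-B cells, with 4 libraries above 25%. Named calls that were lost without these 4 libraries (2 B and 2 non-B) are given beside the results.

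Exposure to IR lowered most of the 50 genes in Trp53+/+ B cells. With limma on log2(RPKM + 0.5), 27 genes fell and 4 rose (adjusted p below 0.05 and an absolute log2 fold change above 0.58, that is 1.5-fold), where 12.2% of the 13821 genes tested fell and 12.5% rose. The log2 fold change was negative for 45 of the 50 genes and its median was -0.64, against 0.01 for all genes tested. The irradiated samples all lay below the mock samples for 20 of the 50 genes, a pattern seen in 23.3% of all genes, and all above them for 4, as did 22.9% of all genes. In bulk samples such as these, fewer cells of a type and less RNA per cell cannot be told apart.

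**Figure D1:**
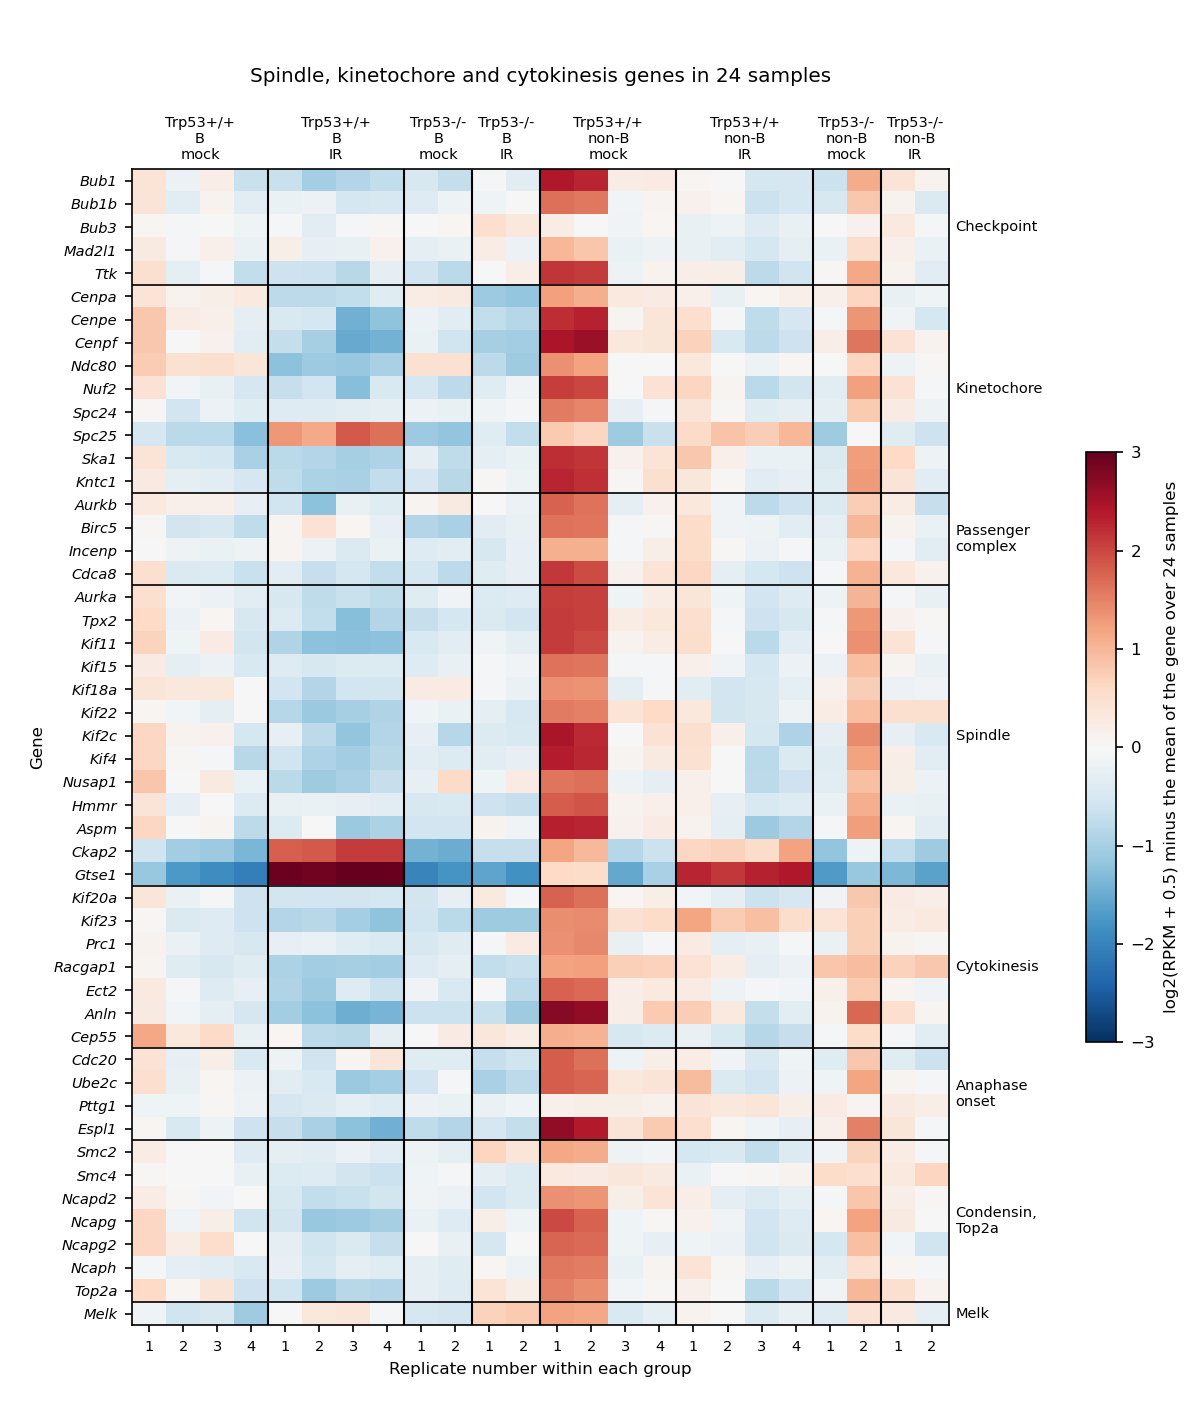
Heatmap of the 50 genes (rows, by role) in 24 samples (columns, by group), coloured by log2(RPKM + 0.5) minus the mean of the gene over all samples. Gtse1, Ckap2 and Spc25 are high in the 4 irradiated Trp53+/+ B samples, where most other genes are low, and mock Trp53+/+ non-B replicates 1 and 2 are high for nearly all genes.

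The 4 genes that rose in Trp53+/+ B cells were Gtse1, Ckap2, Spc25 and Melk. Gtse1 (NCBIM37 chr15:85690137-85707002, plus strand), whose product binds microtubules and is known to restrain p53 in G2, measured 3.99, 2.495, 2.22 and 1.87 RPKM in mock Trp53+/+ B cells and 75.2, 72.8, 79.4 and 82.5 RPKM after IR. The difference was 4.67 ± 0.16, adjusted p = 5.48e-10 on the log2 scale, and at 77.5 ± 4.29 RPKM (SD, n = 4) Gtse1 became the most abundant of the 50 genes per unit of length in these cells. Without p53, Gtse1 measured 2.001 and 2.37 RPKM in mock and 2.77 and 2.28 RPKM in irradiated B cell samples, with overlapping values (0.17 ± 0.23, adjusted p = 0.604). The irradiated Trp53-/- samples thus stayed at the level of unstressed cells. The test of the genotype difference gave a log2 value of 4.50 ± 0.29, adjusted p = 6.09e-07.

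Ckap2 (chr8:23278624-23296291, minus strand), a microtubule-associated protein of the spindle, rose from 4.75, 3.36, 3.22 and 2.56 RPKM to 27.3, 28.01, 33.5 and 33.4 RPKM in Trp53+/+ B cells (2.99 ± 0.15, adjusted p = 1.17e-08). It rose by less in Trp53-/- B cells, from 2.47 and 2.35 RPKM to 4.44 and 4.41 RPKM (0.76 ± 0.21, adjusted p = 0.0115). The groups did not overlap in either genotype, and the rise was larger in Trp53+/+ cells by 2.23 ± 0.26 log2 units (adjusted p = 9.96e-05). Spc25 (chr2:69031952-69044251, minus strand) encodes a subunit of the Ndc80 complex, which couples kinetochores to microtubules. It measured 4.73, 3.69, 3.72 and 2.57 RPKM in mock and 17.5, 15.8, 25.9 and 22.8 RPKM in irradiated Trp53+/+ B cells (2.33 ± 0.19, adjusted p = 7.03e-07). The Trp53-/- B cell values were 2.99 and 2.72 RPKM and 5.2 and 3.93 RPKM (0.59 ± 0.26, adjusted p = 0.0962). Its response differed between the genotypes by 1.74 ± 0.32 log2 units (adjusted p = 0.00319).

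Melk (chr4:44313748-44377547, plus strand), a kinase that is most active in mitosis, was low in all samples. It rose from 1.74, 1.11, 1.24 and 0.664 RPKM to 1.95, 2.54, 2.63 and 1.88 RPKM in Trp53+/+ B cells (0.73 ± 0.20, adjusted p = 0.00821) and from 1.19 and 1.16 RPKM to 3.41 and 3.71 RPKM in Trp53-/- B cells (1.28 ± 0.28, adjusted p = 0.00307). Its response was not shown to differ between genotypes (-0.55 ± 0.34, adjusted p = 0.298). Without mock replicate 4, the lowest of the mock samples, the Trp53+/+ change was 0.57 and no longer passed the fold threshold. Birc5 (survivin) also had a positive fold change in Trp53+/+ B cells that missed the fold threshold (0.53 ± 0.18, adjusted p = 0.0255) and is named after its values were seen.

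**Figure D2:**
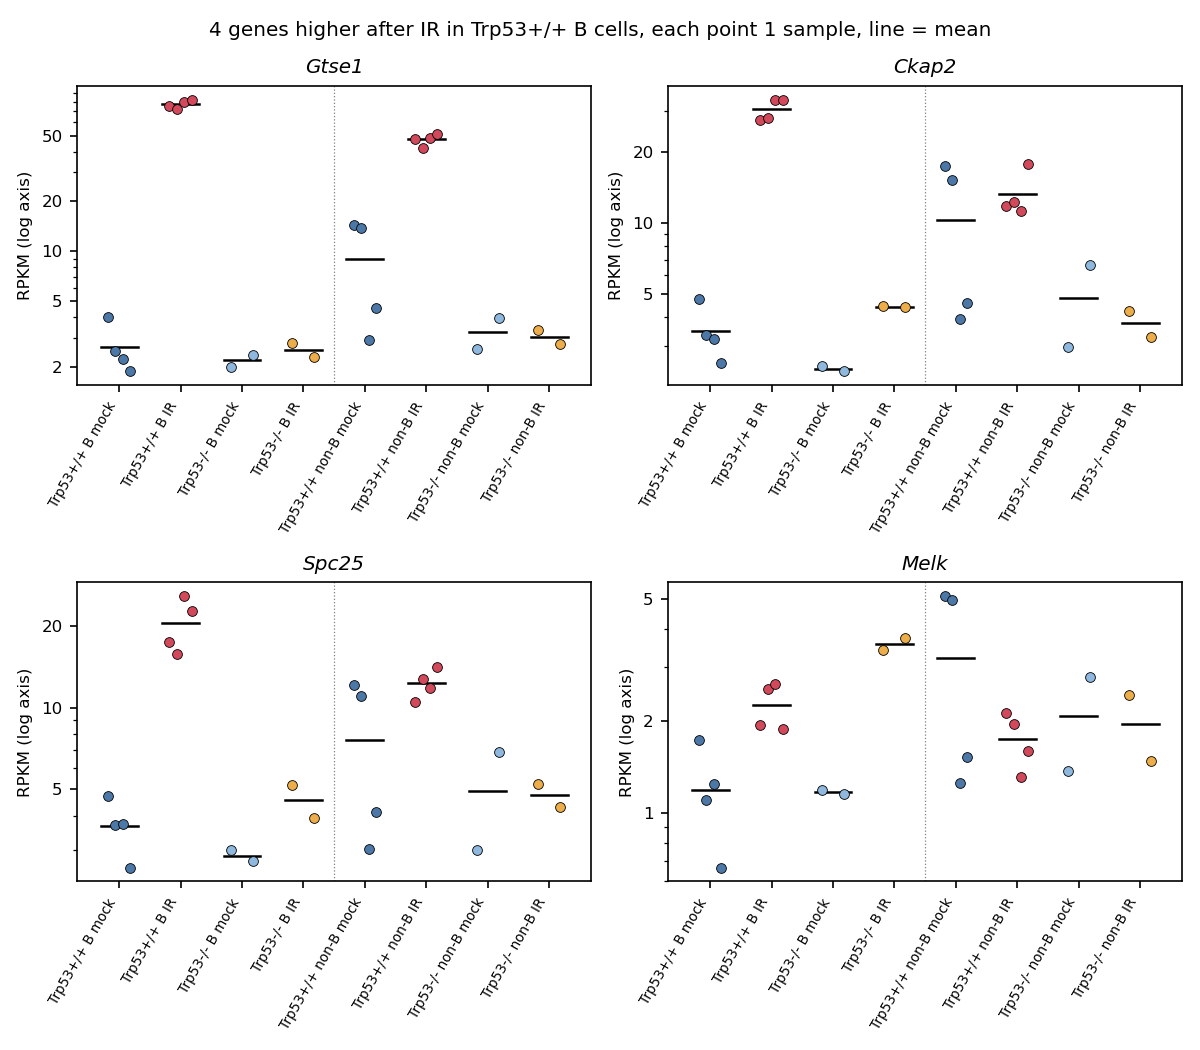
RPKM (log axis) of Gtse1, Ckap2, Spc25 and Melk in the 8 groups, each point 1 sample and each line a group mean. Gtse1, Ckap2 and Spc25 stand apart in irradiated Trp53+/+ B cells (means of 77.5, 30.6 and 20.5 RPKM), while Melk was highest among B cells in the irradiated Trp53-/- samples.

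Among the 5 checkpoint genes, 1 fell in Trp53+/+ B cells and none rose. Bub1, the kinase that recruits checkpoint proteins to unattached kinetochores, measured 3.17, 1.96, 2.65 and 1.23 RPKM in mock and 1.23, 0.859, 1.002 and 1.14 RPKM in irradiated samples (-0.77 ± 0.22, adjusted p = 0.012). Mock replicate 4 lay within the irradiated range. In Trp53-/- B cells Bub1 measured 1.49 and 1.17 RPKM and then 2.197 and 1.68 RPKM (0.41 ± 0.32, adjusted p = 0.326). The genotype difference of its response was not called by limma (-1.18 ± 0.39, adjusted p = 0.0508). Bub3, the most abundant checkpoint gene per unit of length, stayed at 28.7 to 32.97 RPKM and 25.3 to 32.2 RPKM in mock and irradiated Trp53+/+ B cells, with overlapping values. Bub3 went in Trp53-/- B cells from 31.3 and 32.99 RPKM to 44.8 and 39.6 RPKM, a change below the fold threshold (0.38 ± 0.11, adjusted p = 0.015), and its response differed between genotypes (-0.45 ± 0.14, adjusted p = 0.0391).

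Kinetochore genes fell in 6 of 9 cases, and Spc25 was the exception that rose. Cenpf, a large kinetochore protein that accumulates in G2, measured 7.15, 3.85, 4.29 and 3.03 RPKM in mock and 2.17, 1.68, 1.02 and 1.14 RPKM in irradiated Trp53+/+ B cells (-1.32 ± 0.25, adjusted p = 0.000731). The irradiated samples were all below the mock samples. They were also all below them in Trp53-/- B cells, where Cenpf changed by -0.62 ± 0.35 (adjusted p = 0.177). Its genotype difference was not called by limma (-0.69 ± 0.43, adjusted p = 0.288). Cenpa, the histone H3 variant of centromeres, fell in Trp53+/+ B cells from 24.6, 19.9, 21.1 and 22.9 RPKM to 10.6, 10.5, 10.8 and 14.3 RPKM (-0.92 ± 0.10, adjusted p = 1.21e-05). It fell in Trp53-/- B cells too, from 21.8 and 22.4 RPKM to 8.38 and 8.07 RPKM (-1.37 ± 0.14, adjusted p = 1.69e-05). Ndc80, the microtubule-binding partner of Spc25, had the lowest fold change of the 50 genes and was chosen after its values were seen. It fell from 10.5, 8.44, 8.69 and 7.95 RPKM to 2.28, 2.55, 2.46 and 2.81 RPKM in Trp53+/+ B cells (-1.63 ± 0.12, adjusted p = 3.79e-07) and from 8.47 and 8.45 RPKM to 3.295 and 2.63 RPKM in Trp53-/- B cells (-1.38 ± 0.17, adjusted p = 5.65e-05). Spc25 and Ndc80, which sit in the same complex, thus moved in opposite directions in irradiated Trp53+/+ B cells, with no overlap between mock and irradiated samples for either gene.

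The chromosomal passenger complex, whose kinase Aurkb corrects faulty attachments, had 1 gene of 4 that fell. Aurkb measured 12.7, 11.4, 11.3 and 8.52 RPKM in mock and 6.61, 4.04, 8.72 and 7.77 RPKM in irradiated Trp53+/+ B cells (-0.69 ± 0.19, adjusted p = 0.0101), and irradiated replicate 3 overlapped the mock samples. Without irradiated replicates 1 and 2, the 2 B libraries with over 25% of the receptor genes above 0, its change was -0.38 with an adjusted p of 0.0532, and without irradiated replicate 2 alone it was -0.48 and below the fold threshold. Incenp, the scaffold of the complex, measured 17.2 ± 1.26 RPKM (SD, n = 4) in mock and 16.7 ± 2.57 RPKM in irradiated samples, a difference smaller than the spread between them (-0.05 ± 0.10, adjusted p = 0.682). Cdca8 (borealin) measured 4.69, 2.27, 2.29 and 1.87 RPKM and 2.43, 1.82, 2.09 and 1.74 RPKM, with overlap and no call (-0.32 ± 0.22, adjusted p = 0.249).

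Of the 13 spindle genes, 8 fell and 2 rose, the latter being Gtse1 and Ckap2. The 8 were Aurka, Tpx2, Kif11, Kif18a, Kif22, Kif2c, Kif4 and Nusap1, with log2 fold changes between -1.21 for Kif11, the kinesin that pushes spindle poles apart, and -0.64 for Aurka, the kinase of centrosome maturation. Kif11, named after its values were seen, measured 12.7, 7.15, 9.46 and 5.17 RPKM in mock and 3.99, 3.07, 2.995 and 3.08 RPKM in irradiated Trp53+/+ B cells. All 4 irradiated samples were below all 4 mock samples. The same gene measured 5.61 and 6.12 RPKM and 7.12 and 6.43 RPKM in mock and irradiated Trp53-/- B cells, and its response differed between genotypes (-1.40 ± 0.37, adjusted p = 0.0202).

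Cytokinesis genes fell in 5 of 7 cases. Anln, the anillin scaffold of the contractile ring, had the lowest fold change among them, from 2.87, 2.15, 1.79 and 1.48 RPKM to 0.865, 0.691, 0.512 and 0.571 RPKM (-1.13 ± 0.20, adjusted p = 0.000424). Racgap1, a subunit of the centralspindlin complex that bundles midzone microtubules, fell from 12.4, 9.12, 8.3 and 9.04 RPKM to 5.87, 5.43, 5.63 and 5.45 RPKM (-0.73 ± 0.12, adjusted p = 0.00023). Neither gene had overlapping groups. The Trp53-/- changes of Anln (-0.22 ± 0.28, adjusted p = 0.574) and Racgap1 (-0.39 ± 0.17, adjusted p = 0.08) did not pass the test. For both genes the irradiated Trp53-/- B samples nevertheless all lay below the mock samples. By limma, the response was not shown to differ between genotypes for Anln (-0.91 ± 0.34, adjusted p = 0.0819) or Racgap1 (-0.34 ± 0.20, adjusted p = 0.269).

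Genes of anaphase onset fell in 2 of 4 cases. Espl1 (separase), the protease that opens cohesin, went from 2.95, 1.9, 2.45 and 1.65 RPKM to 1.53, 1.18, 0.913 and 0.713 RPKM (-0.79 ± 0.20, adjusted p = 0.0059). Ube2c, the ubiquitin-conjugating enzyme of the anaphase-promoting complex, went from 18.3, 10.9, 13.4 and 11.2 RPKM to 10.1, 9.17, 5.66 and 6.09 RPKM (-0.77 ± 0.21, adjusted p = 0.00841). In Trp53-/- B cells Ube2c changed by -0.59 ± 0.29 (adjusted p = 0.134), with all irradiated samples below the mock samples. The genotype difference was not called by limma for Ube2c (-0.18 ± 0.36, adjusted p = 0.773) or Espl1 (-1.01 ± 0.35, adjusted p = 0.065). The span of Ube2c, introns included, overlaps that of Tnnc2 on the opposite strand of the mm9 assembly. The library kit does not keep strand, so that reads of both cannot be told apart where their exons overlap. The spans of 14 further genes of the 50 also overlap an opposite-strand gene, among them Bub3, Cdca8, Melk, Smc2 and Ncapg. Whether the counted exons overlap, and whether this altered the values, was not examined. Pttg1 (securin), the inhibitor of separase, measured 12.5, 12.5, 14.1 and 12.2 RPKM in mock and 9.59, 10.1, 11.02 and 10.3 RPKM in irradiated Trp53+/+ B cells. This was a small difference without overlap that did not reach the fold threshold (-0.31 ± 0.08, adjusted p = 0.00416).

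Condensin and topology genes fell in 4 of 7 cases, Ncapd2, Ncapg, Ncapg2 and Top2a. Ncapg, a condensin I subunit, measured 8.78, 5.06, 6.31 and 3.46 RPKM in mock and 3.603, 2.22, 2.32 and 2.497 RPKM in irradiated Trp53+/+ B cells (-0.97 ± 0.23, adjusted p = 0.00385), and the highest irradiated sample exceeded the lowest mock sample. Smc4, the condensin ATPase subunit that was the most abundant of the 50 genes in mock B cells, measured 54.98, 53.02, 52.8 and 45.5 RPKM and 40.1, 40.97, 36.2 and 33.97 RPKM, with all irradiated samples lower but a change below the fold threshold (-0.44 ± 0.08, adjusted p = 0.000428). Its partner Smc2 measured 14.8, 12.7, 12.6 and 9.59 RPKM and 10.3, 9.91, 11.1 and 9.96 RPKM (-0.24 ± 0.12, adjusted p = 0.108). The values of Smc2 overlapped and it was not called.

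**Figure D3:**
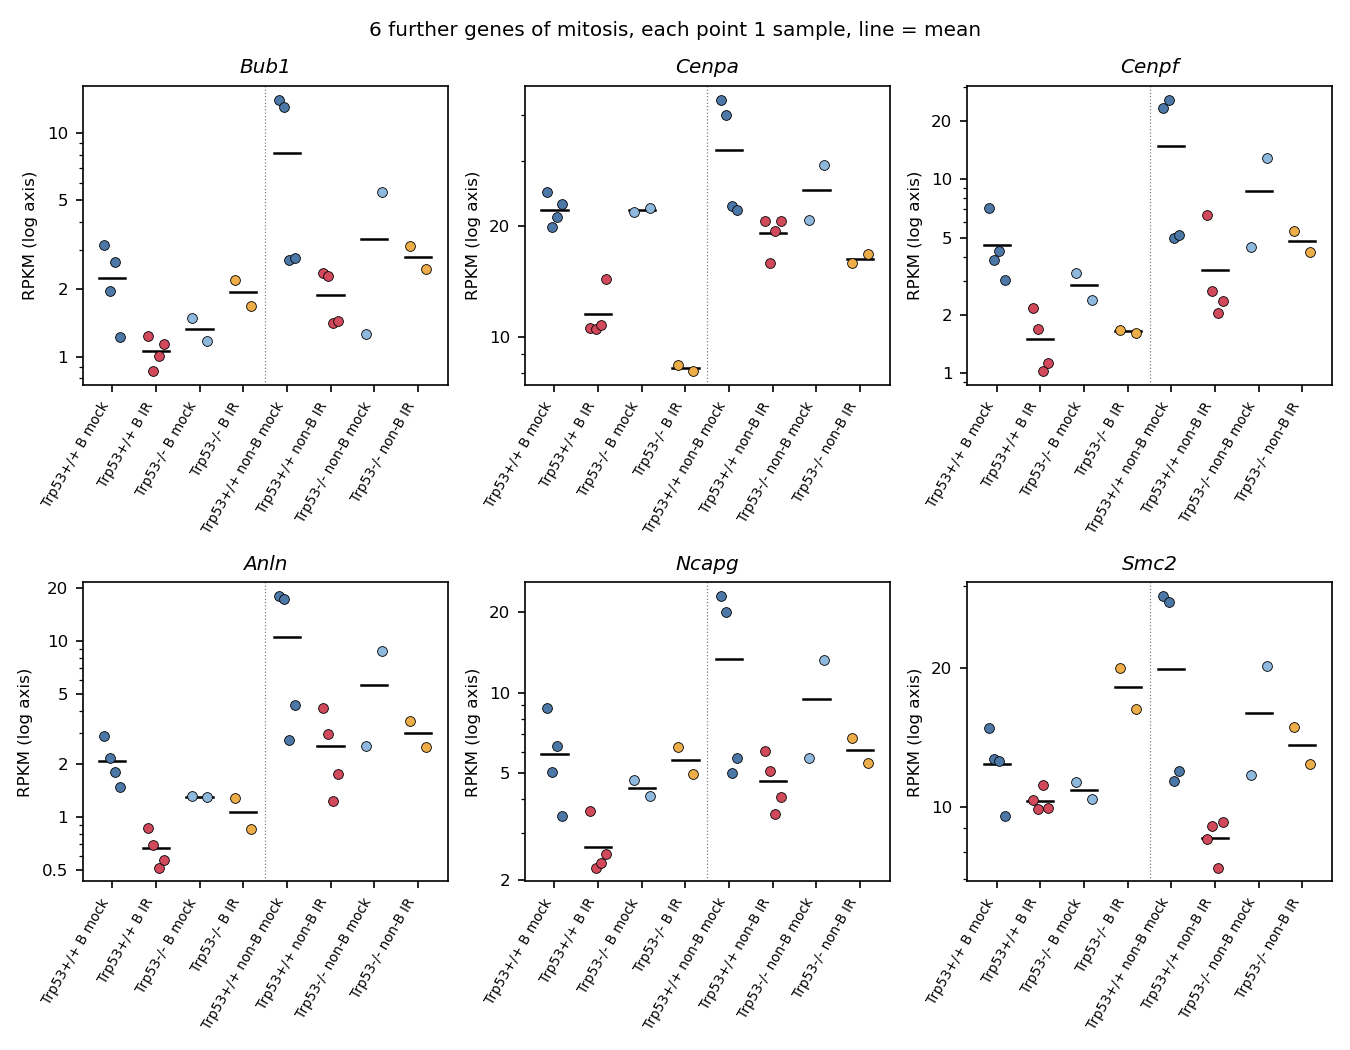
RPKM (log axis) of Bub1, Cenpa, Cenpf, Anln, Ncapg and Smc2 in the 8 groups, each point 1 sample and each line a group mean. Cenpa is lower after IR in B cells of both genotypes, Smc2 is higher after IR in Trp53-/- B cells, and in mock Trp53+/+ non-B cells replicates 1 and 2 lie far above replicates 3 and 4 for all 6 genes.

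In Trp53-/- B cells, with 2 mock and 2 irradiated samples, 5 of the 50 genes were called. Cenpa and Ndc80 fell and Ckap2, Melk and Smc2 rose, where 11.2% of all genes fell and 13.1% rose. The median log2 fold change was 0.14, and 31 of the 50 were positive. Smc2 measured 11.3 and 10.4 RPKM in mock and 19.98 and 16.3 RPKM in irradiated Trp53-/- B cells (0.71 ± 0.17, adjusted p = 0.00471). The irradiated samples did not overlap the mock samples for 23 genes on the higher side and 16 on the lower side, patterns seen in 39.5% and 32.0% of all genes with 2 samples a group.

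The difference of the responses between genotypes was significant in B cells for 10 genes (adjusted p below 0.05). This was 10 of 50, where 18.8% of all genes differed, so that the count was near the background. Of the 10, Bub3, Kntc1, Kif11, Kif22, Smc2, Ncapg and Top2a had the lower value in Trp53+/+ cells (10.6% of all genes), and Gtse1, Ckap2 and Spc25 the higher (8.14%). Genes that fell in Trp53+/+ B cells but are not among the 10, such as Cenpa, Ndc80 and Aurkb, were not shown to respond differently between genotypes. The median difference was -0.54 log2 units over the 50 genes, against -0.06 over all genes. Top2a, the topoisomerase that decatenates chromosomes, was chosen after its values were seen as the gene with the lowest difference (-1.58 ± 0.36, adjusted p = 0.0101). It measured 33.4, 22.9, 28.9 and 14.2 RPKM in mock and 14.5, 10.1, 12.1 and 11.7 RPKM in irradiated Trp53+/+ B cells. The corresponding Trp53-/- values were 17.8 and 16.7 RPKM and 29.5 and 24.9 RPKM, so that the fold changes had opposite signs, although the Trp53-/- change did not pass the test (0.64 ± 0.29, adjusted p = 0.105). For Ncapg the difference was -1.28 ± 0.40, adjusted p = 0.0432, and for Smc2 it was -0.95 ± 0.20, adjusted p = 0.0075. The count of 10 depended on single samples and was 20 without mock Trp53+/+ replicate 4 and 4 without irradiated Trp53-/- replicate 1. It was 6 without either mock Trp53-/- replicate.

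**Figure D4:**
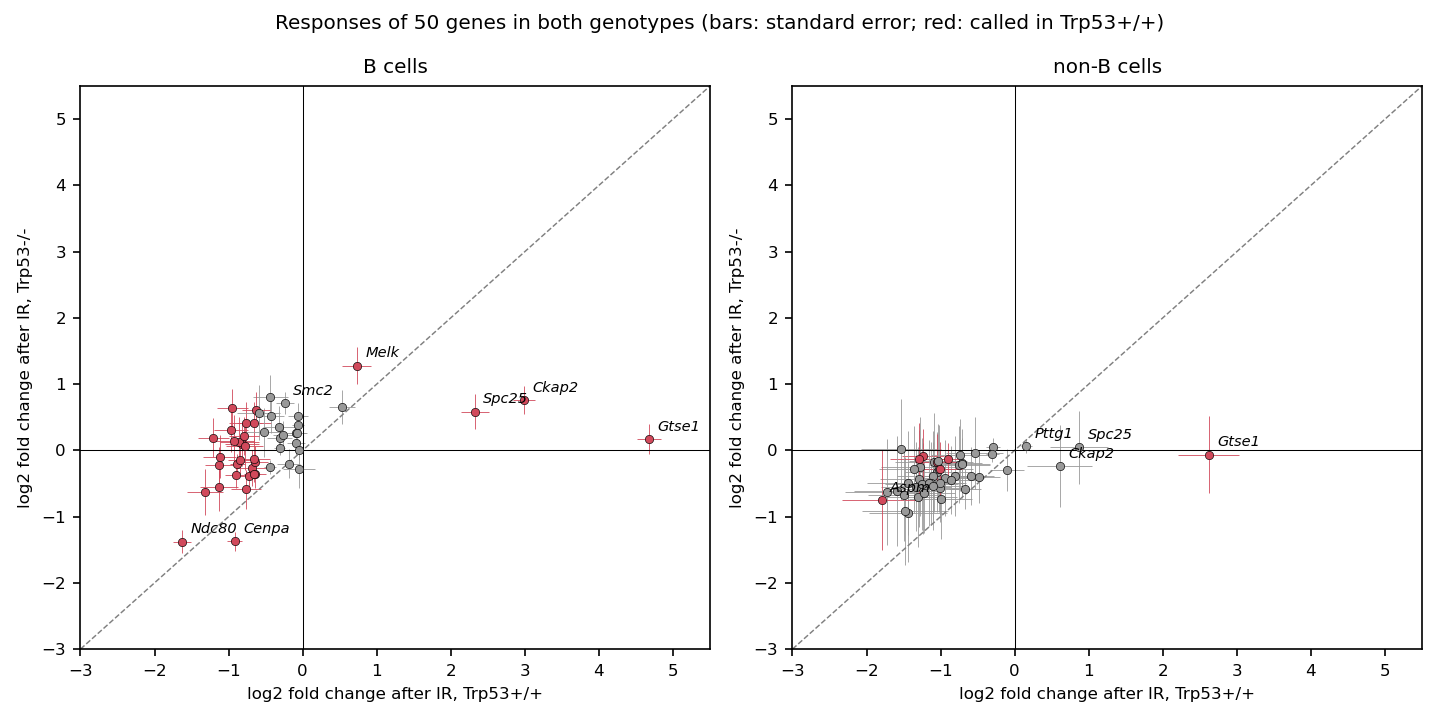
Log2 fold change after IR in Trp53+/+ cells (x axis) against that in Trp53-/- cells (y axis) for the 50 genes, in B cells (left) and non-B cells (right), with bars for the standard error and red for genes called in Trp53+/+ cells. Gtse1 lies at 4.67 and 0.17 in B cells, and Cenpa and Ndc80 are low on both axes.

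Before IR, no gene of the 50 was called between genotypes. In B cells 0 of 50 passed limma at an adjusted p below 0.05, where 0.0506% of all genes were called. An unadjusted p below 0.05 was found for 3 of the 50 and for 589 of all 13821 genes tested. In non-B cells 0 passed at either level, where 0.0428% of all genes were called and 705 of 14018 had an unadjusted p below 0.05. The median difference of Trp53-/- from Trp53+/+ samples was -0.28 log2 units in B cells and -0.49 log2 units in non-B cells, against 0.008 for all genes in either. The mock non-B samples varied widely within each genotype. Their mean log2(RPKM + 0.5) over the 50 genes was 4.45, 4.39, 2.78 and 2.95 in Trp53+/+ and 2.65 and 3.67 in Trp53-/- samples.

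Mock non-B cells of Trp53+/+ mice held more of these transcripts than mock B cells. In the fit of all 16 Trp53+/+ samples, 30 genes were higher in non-B cells and none was lower, where 17.2% of the 14598 genes tested were higher and 7.38% lower, and the median difference was 1.02 log2 units. The 4 mock non-B samples differed widely among themselves, however. Averaged over the 50 genes, log2(RPKM + 0.5) was 4.45 and 4.39 in replicates 1 and 2 and 2.78 and 2.95 in replicates 3 and 4, against 3.12, 2.63, 2.71 and 2.35 in the mock B samples. The samples of the cell types overlapped for all but 6 genes, Kif22, Kif23, Racgap1, Pttg1, Espl1 and Smc4, for which every mock non-B sample was above every mock B sample, a pattern seen in 21.7% of all genes. Racgap1 measured 27.7, 28.3, 19.5 and 19.2 RPKM in non-B cells and 12.4, 9.12, 8.3 and 9.04 RPKM in B cells (1.24 ± 0.17, adjusted p = 1.68e-05). Espl1 measured 20.2, 16.6, 3.78 and 5.14 RPKM and 2.95, 1.9, 2.45 and 1.65 RPKM (1.84 ± 0.40, adjusted p = 0.00144). With replicates 3 and 4 as the only mock non-B samples, 4 genes were higher and 1 was lower, and the median difference was 0.19.

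Erythroid transcripts moved with that spread, although red blood cells had been lysed before the sort. The summed RPKM of 18 erythroid markers, of 20 listed, was 783.1 and 769.6 in mock Trp53+/+ non-B replicates 1 and 2 and 239.6 and 276.6 in replicates 3 and 4. It was 208.7, 70.2, 69.2 and 98.7 in the irradiated Trp53+/+ samples, 125.8 and 542.4 in the mock Trp53-/- samples and 209.1 and 187.0 in the irradiated ones. The mean over the 50 genes was likewise higher in mock Trp53-/- replicate 2 than in replicate 1, at 3.67 and 2.65. All 18 markers were above 0 in the mock samples. Klf1, the erythroid transcription factor, measured 56.01, 52.8, 8.24 and 19.2 RPKM in the 4 mock Trp53+/+ non-B samples and 2.59, 0.092, 0.968 and 1.27 RPKM in the irradiated ones. Car1, the erythroid carbonic anhydrase, was listed at 0 in irradiated replicate 4 and was the only marker at 0 in any sample. The part of erythroid cells in the differences between these samples was not tested. In B cells the erythroid sum was 111.9 to 223.3 RPKM in mock and 80.5 to 89.8 RPKM in irradiated Trp53+/+ samples, and 76.0 to 289.1 and 75.9 to 176.2 RPKM in the Trp53-/- samples. Mock Trp53-/- B replicates 1 and 2, at 76.0 and 289.1 RPKM, had similar means over the 50 genes, 2.44 and 2.41. Mock Trp53+/+ B replicates 1 to 4 had erythroid sums of 223.3, 138.2, 111.9 and 195.8 RPKM and means of 3.12, 2.63, 2.71 and 2.35. Other lists split by the same mock Trp53+/+ non-B pairs. Neutrophil markers summed to 1197.1 and 1083.3 RPKM in replicates 1 and 2 and to 519.4 and 683.2 RPKM in replicates 3 and 4. They summed to 714.9 to 1302.5 RPKM in the irradiated samples, and to 655.9 and 850.5 RPKM in mock Trp53-/- replicates 1 and 2. T cell markers (15 genes) went the other way, at 774.7 and 813.7 RPKM against 1132.3 and 1118.5 RPKM, and summed to 612.2 to 801.6 RPKM after IR. In Trp53+/+ B cells the T cell sum was 195.6 to 214.2 RPKM in mock and 102.6 to 168.6 RPKM in irradiated samples. The part of these cells in the results was not tested either.

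**Figure D5:**
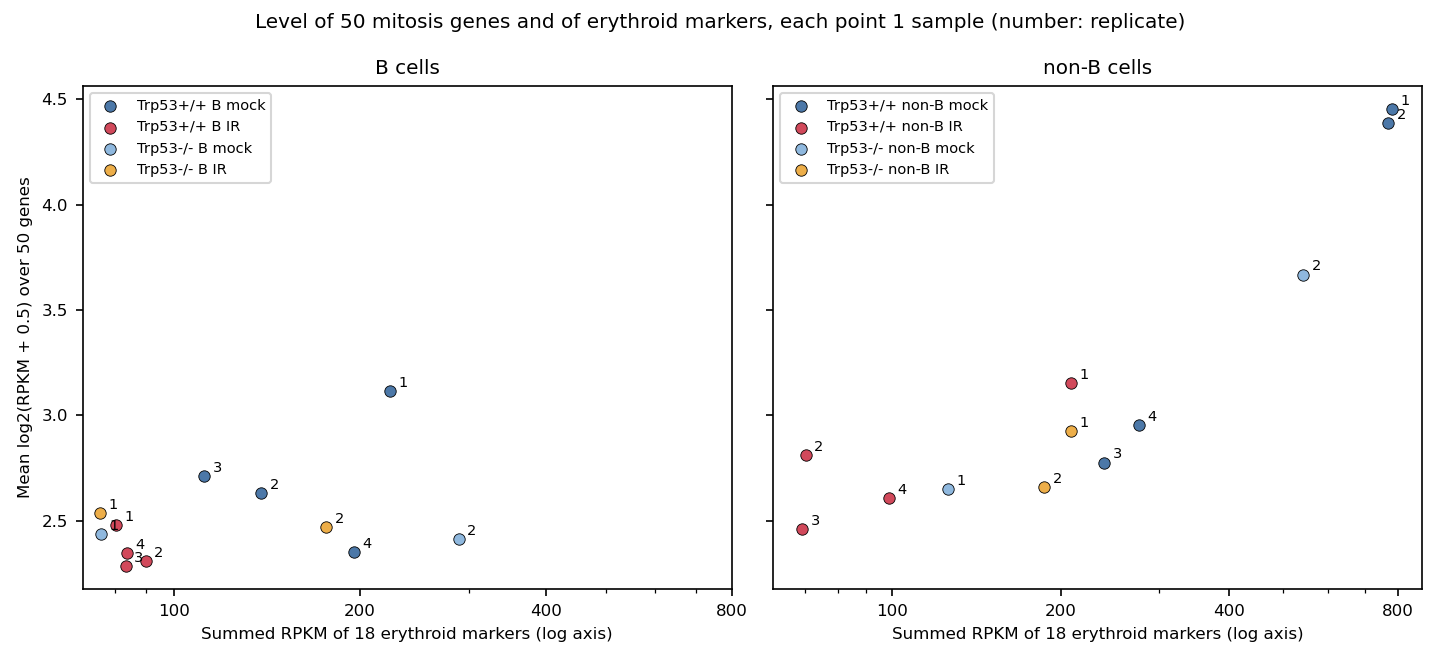
Mean log2(RPKM + 0.5) over the 50 genes (y axis) against the summed RPKM of 18 erythroid markers (x axis, log scale) in B cells (left) and non-B cells (right), each point 1 sample with its replicate number. Mock Trp53+/+ non-B replicates 1 and 2 are highest on both axes (783.1 and 769.6 RPKM), followed by mock Trp53-/- non-B replicate 2 (542.4 RPKM).

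In irradiated Trp53+/+ non-B cells, 6 of the 50 genes fell (Kif22, Aspm, Kif20a, Racgap1, Smc2 and Ncapd2) and Gtse1 rose, where 4.11% of the 14018 genes tested fell and 5.74% rose, 9.85% in all. The log2 fold change was negative for 46 of 50, with a median of -1.04 against -0.03 for all genes. In limma's test 39 of the 50 genes had an unadjusted p below 0.05, as did 4869 of all 14018 genes. Deviations of same-numbered mock and irradiated samples of this comparison correlated, but for mock replicates 2 and 3 another number correlated better. With the replicate number as a block, which no label supports as a pairing, 28 genes were called, 27 lower and 1 higher. The count rested on mock replicates 1 and 2. With replicates 3 and 4 as the only mock samples, 4 genes were called, 1 lower and 3 higher, and the median was -0.24. Leaving out single samples gave 3 calls without mock replicate 1, mock replicate 2 or irradiated replicates 2 or 3, 4 without irradiated replicate 4, and 31 and 15 without mock replicates 3 and 4. Without the libraries with many receptor genes above 0, of which 2 are irradiated Trp53+/+ non-B samples, 2 genes were called, 1 in each direction, and with the mean level of receptor genes as a covariate 0 were called. The irradiated samples all lay below the mock samples for 11 genes, as in 12.1% of all genes.

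Gtse1 measured 14.4, 13.8, 2.903 and 4.52 RPKM in mock and 47.7, 42.2, 48.3 and 51.2 RPKM in irradiated Trp53+/+ non-B cells (2.62 ± 0.41, adjusted p = 0.00165). It was the only gene of the 50 besides Pttg1 for which all irradiated samples lay above all mock samples, as in 10.0% of all genes. In Trp53-/- non-B cells Gtse1 measured 2.55 and 3.95 RPKM and 3.35 and 2.73 RPKM (-0.06 ± 0.58, adjusted p = 0.982). It was also the only gene of the 50 whose response differed between genotypes in non-B cells (2.68 ± 0.71, adjusted p = 0.044), where 7.35% of all genes differed and 3.98% had the higher value in Trp53+/+ cells, and 9 of the 12 fits that left out 1 sample gave no such call. Nor was it called without the 2 non-B libraries with over 25% of the receptor genes above 0 (2.61, adjusted p = 0.0966). With mock replicates 3 and 4 alone its change after IR was 3.53 with an adjusted p of 3.88e-06.

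Ckap2 and Spc25 did not pass the test in non-B cells. Ckap2 measured 17.5, 15.2, 3.91 and 4.58 RPKM in mock and 11.8, 12.3, 11.2 and 17.8 RPKM in irradiated Trp53+/+ samples (0.61 ± 0.44, adjusted p = 0.355). Spc25 measured 12.2, 11.1, 3.004 and 4.12 RPKM and 10.5, 12.8, 11.8 and 14.2 RPKM (0.87 ± 0.39, adjusted p = 0.138). In both cases the irradiated samples were within the range spanned by the mock samples or overlapped its top. Against mock replicates 3 and 4 alone, both rose, Ckap2 by 1.52 (adjusted p = 0.00642) and Spc25 by 1.67 (adjusted p = 0.00348), and with Gtse1 they were the 3 genes higher in that setting. Melk measured 5.103, 4.96, 1.26 and 1.53 RPKM and 2.13, 1.95, 1.31 and 1.59 RPKM in non-B cells and was not called (-0.54 ± 0.39, adjusted p = 0.351).

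Racgap1 fell in non-B cells against all 4 mock samples and against replicates 3 and 4 alone. It measured 27.7, 28.3, 19.5 and 19.2 RPKM in mock and 16.01, 13.7, 9.77 and 10.4 RPKM in irradiated Trp53+/+ samples (-0.90 ± 0.17, adjusted p = 0.0053), with all irradiated samples lower, and its change was -0.64 with an adjusted p of 0.036 against replicates 3 and 4 alone. Smc2 measured 28.6, 27.8, 11.4 and 11.96 RPKM and 8.56, 9.13, 7.398 and 9.31 RPKM (-1.04 ± 0.30, adjusted p = 0.0325), again without overlap, but against mock replicates 3 and 4 alone its change was -0.43 with an adjusted p of 0.172. Without mock replicate 1 its adjusted p was 0.0734, it exceeded 0.05 in 4 other fits that left out 1 sample, and it was 0.123 without the 2 non-B libraries with over 25% of the receptor genes above 0.

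In other genes the 4 mock samples split into the same pairs. Bub1 measured 14.1, 13.01, 2.702 and 2.77 RPKM in mock and 2.36, 2.29, 1.41 and 1.44 RPKM in irradiated Trp53+/+ non-B cells (-1.53 ± 0.54, adjusted p = 0.0688, and 0.0309 with the block). Cenpf measured 23.4, 25.8, 4.996 and 5.15 RPKM and 6.59, 2.67, 2.06 and 2.35 RPKM (-1.72 ± 0.57, adjusted p = 0.0544, and 0.0206 with the block). Anln measured 18.03, 17.3, 2.72 and 4.32 RPKM and 4.17, 2.96, 1.22 and 1.76 RPKM (-1.59 ± 0.59, adjusted p = 0.0792, and 0.0197 with the block). For each of the 3 genes, mock replicates 1 and 2 were several times higher than replicates 3 and 4. Espl1 (-1.49 ± 0.49, adjusted p = 0.0531) and Cdca8 (-1.36 ± 0.47, adjusted p = 0.0628) behaved alike and were called with the block, at adjusted p of 0.0265 and 0.0206. Against mock replicates 3 and 4 alone none of the 5 genes was called, and the changes were -0.47 for Bub1 (adjusted p = 0.466), -0.64 for Cenpf (0.359), -0.48 for Anln (0.526), -0.52 for Espl1 (0.346) and -0.48 for Cdca8 (0.416). Pttg1 stood apart from them, at 15.3, 15.5, 15.5 and 15.1 RPKM in mock and 18.1, 17.2, 17.8 and 15.6 RPKM in irradiated samples, with no difference between the mock pairs and a small change that was not called (0.15 ± 0.07, adjusted p = 0.167). Smc4 and Bub3 had changes below the fold threshold (-0.30 and -0.30).

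In Trp53-/- non-B cells, 0 of the 50 genes were called by limma, where 0.442% of all genes were called. An unadjusted p below 0.05 was found for 0 of the 50 and for 2222 of all 14018 genes tested. The log2 fold change was negative for 46 of 50, with a median of -0.39, and the 2 mock samples differed from each other by more than that for Bub1 (1.26 and 5.44 RPKM) and Cenpf (4.49 and 12.9 RPKM). The irradiated samples both lay below the mock samples for 7 genes, as in 25.3% of all genes, and above them for none. A change was not detectable with these samples.

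The response to IR differed between the cell types in Trp53+/+ mice for 5 of the 50 genes, where 28.0% of all genes differed, so that the count was below the background. Spc25 (-1.46 ± 0.46, adjusted p = 0.0272), Ckap2 (-2.38 ± 0.51, adjusted p = 0.00241) and Gtse1 (-2.06 ± 0.50, adjusted p = 0.00614) had the larger change in B cells. Against mock non-B replicates 3 and 4 alone, the non-B rises of these genes were larger, as given above, though still below those in B cells. The sizes of these differences thus rested in part on mock non-B replicates 1 and 2. Ndc80, named after its values were seen, had a lower fold change in B cells than in non-B cells (1.04 ± 0.36, adjusted p = 0.0414). It measured 16.3, 14.7, 6.01 and 6.05 RPKM in mock and 7.64, 6.01, 5.4 and 6.32 RPKM in irradiated non-B cells. Pttg1 had log2 fold changes of -0.31 (B) and 0.15 (non-B), and these values differed (0.46 ± 0.11, adjusted p = 0.00383). With B and non-B samples of 1 number and treatment as a block, all 5 were still called. Without the 4 libraries with over 25% of the receptor genes above 0, Spc25 (adjusted p = 0.0517) and Ndc80 (0.125) were not. The count was 8 with either form of the replicate block and 8 with mock non-B replicates 3 and 4 alone, 3 without the libraries with many receptor genes above 0, 3 without mock B replicate 4 or irradiated B replicate 3, and 10 and 8 without mock non-B replicates 3 and 4.

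Other mitosis genes, a list of 92 of which 89 were found, were described in the same way. In Trp53+/+ B cells 13 fell and 4 rose (Cenpm, Fam83d, Haus8 and Kif18b), with a median of -0.16 against -0.64 for the 50 genes, where 12.2% of all genes fell and 12.5% rose, so that the share that fell was near the background. In Trp53-/- B cells 1 fell and 7 rose, fewer than the 11.2% and 13.1% of all genes, with a median of 0.22 against 0.14 for the 50 genes. Kif18b, a kinesin that shortens astral microtubules, measured 4.896, 3.42, 2.91 and 1.81 RPKM in mock and 11.3, 10.4, 14.6 and 14.6 RPKM in irradiated Trp53+/+ B cells (1.86 ± 0.22, adjusted p = 2.3e-05) and 1.798 and 1.53 RPKM and 1.596 and 1.25 RPKM in Trp53-/- B cells (-0.17 ± 0.32, adjusted p = 0.712). Its genotype difference was 2.04 ± 0.39, adjusted p = 0.00382. Fam83d, a spindle protein, rose from 1.195, 1.21, 0.789 and 0.81 RPKM to 3.49, 5.01, 2.75 and 2.59 RPKM in Trp53+/+ B cells (1.38 ± 0.26, adjusted p = 0.000748). Its change in Trp53-/- B cells was 0.76 ± 0.36 (adjusted p = 0.116). For Fam83d the genotype difference was not called by limma (0.61 ± 0.45, adjusted p = 0.378). Casc5, the kinetochore scaffold that binds Bub1 and Bub3, fell from 12.6, 8.61, 9.49 and 8.15 RPKM to 4.11, 2.67, 2.85 and 3.02 RPKM in Trp53+/+ B cells (-1.48 ± 0.15, adjusted p = 6.13e-06). Casc5 fell in Trp53-/- B cells too (-0.75 ± 0.21, adjusted p = 0.0138). In Trp53+/+ non-B cells 8 genes of the list fell and none rose, where 4.11% of all genes fell and 5.74% rose, with a median of -0.40. Nek2, a kinase of centrosome separation, was among them (-1.76 ± 0.48, adjusted p = 0.0269), whereas Cenph (-1.57 ± 0.53, adjusted p = 0.059) and Pbk (-1.56 ± 0.58, adjusted p = 0.0794) passed the test with the replicate block, at adjusted p of 0.0326 and 0.0284, but not without it and not against mock replicates 3 and 4 alone (-0.55 and -0.53, adjusted p = 0.393 and 0.509). Nek2 measured 19.3, 15.1, 4.47 and 4.21 RPKM in mock and 3.45, 2.66, 1.55 and 1.62 RPKM in irradiated samples, and against mock replicates 3 and 4 alone its change was -0.83 with an adjusted p of 0.149, and without the 2 non-B libraries with over 25% of the receptor genes above 0 it was -1.39 (adjusted p = 0.155). Pbk, a mitotic kinase, was the gene of the list with the lowest genotype difference in B cells (-2.02 ± 0.39, adjusted p = 0.00426). It measured 4.49, 2.79, 2.79 and 2.41 RPKM in mock and 0.884, 0.506, 1.52 and 1.18 RPKM in irradiated Trp53+/+ B cells, against 1.86 and 1.79 RPKM and 3.37 and 3.45 RPKM in Trp53-/- B cells.

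The promoter elements occurred in every class of response in Trp53+/+ B cells. TTTGAA or TTCGAA was present in 21 of the 25 genes with a promoter that fell, in 2 of the 4 that rose (Ckap2 and Spc25) and in 10 of the 14 without a call. CCAAT was present in 17, 3 and 9 genes of these classes. Among the genes that rose, Ckap2 and Spc25 thus carried the same letters as most genes that fell, and Gtse1 and Melk carried neither TTTGAA nor TTCGAA. Other forms of the element were not searched. No test was made of these shares.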

How the data were processed

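Splenic B and non-B cells were profiled by RNA-Seq in 24 samples of 8 groups, taken from the labels. The authors masked bases below a quality of 20, aligned reads to mm9 with TopHat, kept 1 of duplicated reads, counted reads per UCSC gene with featureCounts (TopHat2 2.0.8 and featureCounts 1.4.5 in the submitters' processing notes) and deposited the values as RPKM, with the reads mapped to exons as library size. Read counts were not used here, so that no count model was fitted.

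From these RPKM values, log2(RPKM + 0.5) was fitted with limma 3.58.1 in R 4.3.3 (group means, eBayes with a mean-variance trend), in 1 fit per cell type over 12 samples and 1 over the 16 Trp53+/+ samples. Genes were tested if any Trp53+/+ sample of the fit exceeded 1 RPKM (13821, 14018 and 14598 genes). Calls took a Benjamini-Hochberg adjusted p below 0.05 over all genes tested and an absolute log2 fold change above 0.58, and differences of responses the adjusted p alone. Errors are standard errors for fold changes. Other steps used Python 3.11.15 and pandas 2.3.3. The fit was run on data simulated from the mean levels of mock Trp53+/+ B cells, with the same spread in every group. That simulation does not cover the wide spread of the mock non-B samples. Depth was estimated from the spacing of low RPKM values (0.1 of a read as tolerance) and is approximate, and a gene listed at 0 may still be expressed. The labels name no batch.

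The 50 genes and the other lists were chosen with earlier results of these data known. Genes were named by a rule: in each role, the highest mean and the largest change in Trp53+/+ B and non-B cells, every gene called higher after IR, and the smallest adjusted p of the genotype and cell type differences, with the exceptions marked in the text. The labels number the samples. Deviations of same-numbered mock and irradiated Trp53+/+ non-B samples correlated at 0.323, 0.156, 0.220 and 0.323. For mock replicates 2 and 3, an irradiated sample of another number correlated better. No label pairs these samples, and the mock mice were a separate control cohort. The replicate block is therefore an alternative setting and not a known pairing. In B cells the correlations were 0.015 to 0.086. Non-B cells were the unbound part of the B cell sort, so that both cell types may come from the same mice. The sources used here do not say whether the numbers mark the mice, and same-numbered B and non-B samples of the Trp53+/+ groups correlated at -0.102 to 0.351. The fit of both cell types took all samples as independent, and the block within treatment was its alternative.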

Additional observations from a re-analysis of the deposited data

Results flagged for a closer look

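Single samples lay apart from the other 3 of their group in 5 of the 100 groups of 4 that were checked, which is about the share of 1 in 20 that chance gives (by the gap to the nearest sample relative to the range of the group). Cenpa measured 14.3 RPKM in irradiated Trp53+/+ B replicate 4 and Cdca8 measured 4.69 RPKM in mock Trp53+/+ B replicate 1, each the highest of its group. Cenpf measured 6.59 RPKM and Ube2c 25.1 RPKM in irradiated Trp53+/+ non-B replicate 1. That sample had both the highest erythroid sum (208.7 RPKM) and the highest neutrophil sum (1302.5 RPKM) of its group. Ckap2 measured 17.8 RPKM in irradiated Trp53+/+ non-B replicate 4.

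The response to IR differed between genotypes in B cells, by the limma test of the difference, for Gtse1 (4.50), Ckap2 (2.23), Spc25 (1.74) and the further mitosis gene Kif18b (2.04), all with the higher value in Trp53+/+ cells. It differed in the other direction for Bub3 (-0.45), Smc2 (-0.95), Ncapg (-1.28) and the further mitosis gene Pbk (-2.02). In non-B cells it differed between genotypes for Gtse1 (2.68). Between the cell types of Trp53+/+ mice, with negative values for a lower response in non-B cells, it differed for Gtse1 (-2.06), Ckap2 (-2.38), Spc25 (-1.46), Kif18b (-2.07) and Fam83d (-1.96), and for Pttg1 (0.46). The sizes for Gtse1, Ckap2 and Spc25 rested in part on mock non-B replicates 1 and 2. Without the 4 libraries with over 25% of silent receptor genes above 0, the cell type differences of Spc25 (adjusted p = 0.0517), Kif18b (0.113) and Fam83d (0.156) and the non-B genotype difference of Gtse1 (0.0966) did not pass limma's test.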

How the results depend on the processing

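The group of 2 Trp53-/- samples per condition, the spread of the mock Trp53+/+ non-B samples and the receptor signal in 4 irradiated libraries limit these results, and low genes such as Ska1 and Melk rest on few reads. No fold change of a named gene after IR in Trp53+/+ cells changed sign where it was called in either setting. Of the 25 named genes, 2 in B cells (Bub3, Incenp) and 6 in non-B cells (Spc25, Incenp, Melk, Ckap2, Kif18b, Fam83d) changed sign in at least 1 setting without a call on either side. Counts of genes called that moved by over 1.5 times are given next. Apart from the fits that left out 1 sample, given below, no other planned setting moved a count so far. Trp53+/+ B cells (31) gave 9 at a log2 fold change over 1 and 20 with Trp53+/+ replicates 3 and 4 only. Trp53-/- B cells (5) gave 8 without a fold threshold, 3 at a log2 fold change over 1 and 8 with Trp53+/+ replicates 1 and 2 only. The genotype difference in B cells (10) gave 4 at an adjusted p below 0.01, 17 with quantile normalization, 16 with sample weights and 3 with replicates 3 and 4 only. Trp53+/+ non-B cells (7) gave 2 at an adjusted p below 0.01, 13 with quantile normalization, 28 with the replicate block, 44 with sample weights, 0 with the receptor covariate, 38 with replicates 1 and 2 only and 4 with replicates 3 and 4 only. The genotype difference in non-B cells (1) gave 0 at an adjusted p below 0.01, without the expression filter and with the receptor covariate, 2 with the replicate block, 6 with sample weights, 4 with replicates 1 and 2 only and 2 with replicates 3 and 4 only. The mock genotype difference in non-B cells (0) gave 1 with replicates 1 and 2 only. Non-B against B cells in mock (30) gave 10 at an adjusted p below 0.01, 13 with quantile normalization, 46 with sample weights, 46 with replicates 1 and 2 only and 10 with replicates 3 and 4 only. The cell type difference of the response (5) gave 3 at an adjusted p below 0.01, 8 with the replicate block, 41 with sample weights and 24 with replicates 1 and 2 only. The cause of these differences was not tested.

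Leaving out 1 sample at a time gave 25 to 34, 4 to 8 and 4 to 20 for the first 3 counts, 3 to 31 for Trp53+/+ non-B cells, 0 to 1 for the genotype difference in non-B cells, 11 to 41 for non-B against B cells and 3 to 10 for the cell type difference, and 0 throughout for Trp53-/- non-B cells and both mock genotype differences.

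Settings chosen after seeing the data were the following. Without the 4 libraries with over 25% of silent receptor genes above 0, Trp53+/+ non-B cells gave 2, their genotype difference 0 and the cell type difference 3. With mock Trp53+/+ non-B replicates 3 and 4 only, these counts were 4, 3 and 8, and non-B against B cells gave 5. The replicate block within treatment gave 8 for the cell type difference and 37 for non-B against B cells. The replicate numbers of the Trp53-/- non-B samples correlated at -0.255, and with those numbers crossed the block gave 36 for Trp53+/+ non-B cells and 2 for the genotype difference. The block gave 32, 7 and 11 in B cells and 35 for non-B against B cells.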
